A study of Mus musculus with 11 samples.

Results

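Genes of myoblast fusion and adhesion were followed in muscle progenitors of the mouse trunk at 3 postnatal ages. They were the fusion protein genes Mymk and Mymx and the muscle cell adhesion genes Cdh15, Cdh2, Ncam1, Cdon and Boc. The transcriptional cofactor Vgll2 and the ferlin Myof were followed with them. Every probe set that the array annotation assigns to one of these 9 genes and to no other was used, which gave 20 of the 45037 non-control probe sets on the array. The 45037 probe sets include at least 1 for each of 18193 genes. The cells came from Pax3GFP/+ mice on a C57BL/6J background, in which 1 copy of Pax3 carries the coding sequence of green fluorescent protein (GFP), so that cells with an active Pax3 gene glow and can be sorted. Cells were sorted on GFP after dead cells had been excluded with propidium iodide, and every group carries the heterozygous Pax3 allele, the P1 group included. There were 4 arrays at postnatal day 1 (P1) and 4 at day 12 (P12), both of trunk muscle with satellite cells that the labels call proliferating. There were 3 arrays at day 28 (P28), of abdominal, pectoral and intercostal muscle with satellite cells, the resident stem cells of muscle. The labels call the arrays biological replicates and do not give the number of animals behind each, so the p-values below measure the spread between these arrays.

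Muscle fibres form when mononucleated myoblasts recognise each other through surface adhesion molecules, align, and merge their plasma membranes. Myomaker, the product of Mymk, is a membrane protein needed for the first mixing of the membranes, and Myomixer (also called Minion or Myomerger), the product of Mymx, is a micropeptide that completes the fusion pore. In postnatal muscle the myonuclei added during growth come from satellite cells by the same fusion step, and quiescent satellite cells are held against the fibre by cadherins and other adhesion molecules.

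Values are log2 units of the deposited expression table, in which a difference of 1 is a doubling of the array signal. A probe set was said to have risen or fallen when its limma p-value, adjusted by the Benjamini-Hochberg method over all 45037 probe sets, was under 0.05. Where a gene has several probe sets, the brightest over all arrays is given first. Signals of different probe sets depend on their sequences, so no level is compared between genes. Array medians lay between 5.50 and 5.57, and the mean of the Trp controls, bacterial sequences absent from the samples, lay between 3.36 and 3.64. Correlations between arrays were 0.981 to 0.994 within an age, 0.973 to 0.986 between P12 and P1, and 0.936 to 0.965 between P28 and the younger ages. The P28 arrays differ from the others in age and in the muscles named, and their internal sample names carry another suffix and the same leading code as those of P1. Age, muscles and the preparation of that set therefore cannot be told apart in any comparison with P28.

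The sorted cells carried satellite cell markers at all ages, with a summed level of 10 markers of 13.25 to 13.80 at P1, 13.49 to 13.85 at P12 and 13.96 to 14.26 at P28 on the log2 scale. The 10 markers include Cdh15, a gene followed here, and Pax3, whose GFP allele was used for sorting. Markers of mature muscle fibres were higher at P28, where 11 of 12 rose relative to each younger age. At P12, 7 of the 12 had already risen relative to P1, beside 3.94% of all genes, with a median change of 0.93. The summed level of the fibre markers was 15.04 to 15.58 at P28 against 12.23 to 13.03 at P12 and 11.98 to 12.27 at P1. Of all genes, 15.5% rose at P28 relative to P12 and 19.9% relative to P1. Endothelial markers summed to 11.27 to 12.01 at P28 against 9.73 to 10.34 at P12 and 9.38 to 10.15 at P1, and 9 of 10 rose relative to each younger age. Fibro-adipogenic markers summed to 14.51 to 15.05 at P28 against 13.74 to 14.37 at P12 and 13.70 to 14.37 at P1, and macrophage markers to 11.53 to 12.50 at P28 against 10.19 to 10.42 at P12 and 10.31 to 11.07 at P1. Of the fibro-adipogenic markers, 6 of 9 rose at P28 relative to P12 and 5 of 9 relative to P1. Of the macrophage markers, 5 of 10 and 4 of 10 did. Pericyte and smooth muscle markers summed to 13.41 to 13.58 at P28 against 12.79 to 13.41 at P12 and 12.48 to 13.10 at P1. At P28, 7 of these 9 rose relative to each younger age, and 1 fell relative to P1. The sums for Schwann cell, melanocyte and neural markers were 11.76 to 11.79 at P28, 11.60 to 11.91 at P12 and 11.34 to 11.72 at P1. At P28, 2 of these 10 rose and 1 fell relative to P12, and 3 rose and 1 fell relative to P1. In bulk samples such as these, fewer cells of a type and less RNA per cell cannot be told apart. The part of these other cell types in the values at P12 and P28 was not tested.

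The course over age differed from gene to gene. Mymk rose between P1 and P12 and stayed higher at P28 than at P1, Mymx, Cdh2 and Vgll2 fell at P28, and Boc rose at P28. Cdh15, Ncam1, Cdon and Myof showed small changes or changes that depended on the probe set. A test of any difference among the 3 ages passed for 9 of the 20 probe sets, beside 36.3% of all probe sets. It passed for 5 of the 9 brightest ones, those of Mymk, Mymx, Cdh2, Boc and Vgll2. The share among the brightest probe sets of all genes was not computed for this test. For P12 against P1, 2 of the 20 probe sets rose and none fell (limma), beside 3.25% and 1.59% of all probe sets. An unadjusted p under 0.05 was found for 8 of the 20, of which 2 were lower at P12. Among all 45037 probe sets it was found for 8411, of which 3057 were lower at P12. For P28 against P12, 2 rose and 5 fell, beside 13.5% and 15.9% of all probe sets. For P28 against P1, 5 rose and 5 fell, beside 17.6% and 17.4% of all probe sets, and the total of 10 was 6 without P1 replicate 2, without P28 replicate 1 or without P28 replicate 2. The median change of the 20 probe sets was 0.21 for P12 against P1, -0.16 for P28 against P12 and -0.0014 for P28 against P1, beside 0.0067, -0.049 and -0.047 over all probe sets. By brightest probe set, 3891 of all 18193 genes had an unadjusted limma p under 0.05 for P12 against P1, of which 1296 were lower. For P28 against P12 these numbers were 7501 and 3887. The unadjusted counts of the lists below stand beside them.

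**Figure D1:**
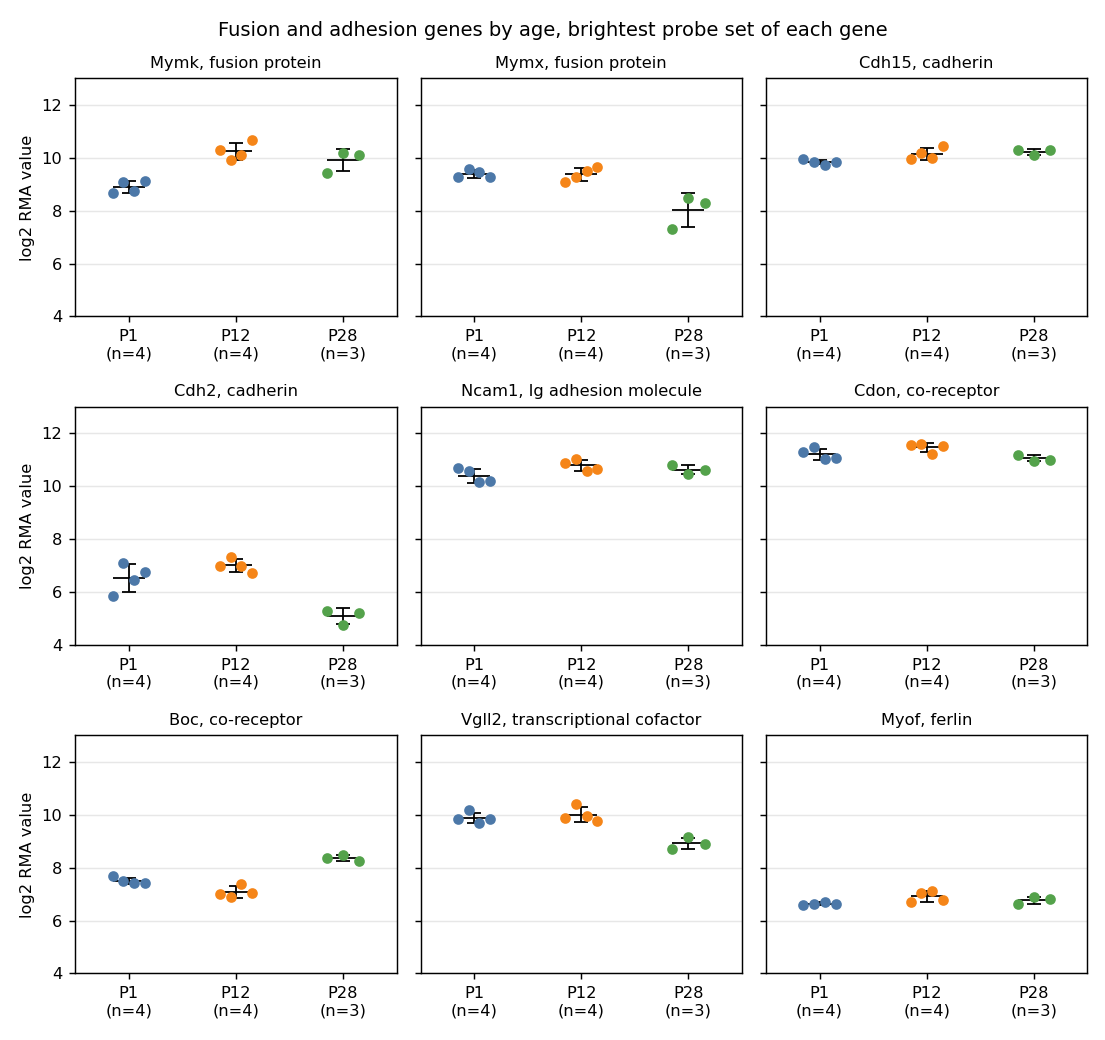
Log2 expression values of the brightest probe set of each of the 9 genes at P1, P12 and P28. Each point is 1 array, the long line is the mean and the bars are 1 SD, and the 4 P12 points of Mymk lie above its 4 P1 points while the 3 P28 points of Mymx, Cdh2 and Vgll2 lie below those of both younger ages.

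Mymk (probe set 1419050_at) had log2 values of 8.68, 9.09, 8.74 and 9.11 in the P1 arrays, 10.30, 9.91, 10.09 and 10.66 in the P12 arrays and 9.42, 10.20 and 10.11 in the P28 arrays. All 4 P12 arrays and all 3 P28 arrays lay above the 4 P1 arrays, while the P28 and P12 arrays overlapped. The mean was 10.24 ± 0.32 at P12 against 8.91 ± 0.22 at P1 (SD, n = 4 each), a rise of 1.33 ± 0.20 (SE), or 2.52-fold (limma adjusted p = 0.00192). At P28 it was 9.91 ± 0.43 (SD, n = 3), 1.01 ± 0.21 above P1 or 2.01-fold (limma adjusted p = 0.00218). The difference of P28 from P12 was -0.33 ± 0.21 and did not pass (limma adjusted p = 0.274). Among replicates 1 and 2 alone the rise at P12 was 1.21 and no longer passed (limma adjusted p = 0.0637), among replicates 3 and 4 it was 1.45 (limma adjusted p = 0.0101), and with the Gapdh 3' to 5' difference as a covariate the difference of P28 from P1 was 0.80 (limma adjusted p = 0.051). The Gapdh difference is a measure of RNA integrity and of how far labelling reached towards the 5' end. It was 0.79 to 0.99 at P28, 1.32 to 3.05 at P12 and 1.62 to 2.79 at P1. It was thus lower in the P28 arrays than in all others, while its ranges at P12 and P1 overlapped.

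Mymx (1456242_at), the partner of Mymk in fusion, took a different course. Its log2 values were 9.28, 9.57, 9.47 and 9.26 at P1, 9.07, 9.29, 9.48 and 9.65 at P12, and 7.31, 8.47 and 8.30 at P28. The P12 arrays spanned the P1 arrays, and all 3 P28 arrays lay below both, with P28 replicate 1 the lowest. The mean was 8.02 ± 0.63 at P28 (SD, n = 3) against 9.37 ± 0.25 at P12 and 9.40 ± 0.15 at P1 (SD, n = 4 each). Mymx was 2.54-fold lower at P28 than at P12, a change of -1.35 ± 0.23 (limma adjusted p = 0.000688), and 2.59-fold lower than at P1, a change of -1.37 ± 0.23 (limma adjusted p = 0.000444). The difference of P12 from P1 was -0.02 ± 0.22 (limma adjusted p = 0.974). The fall of Mymx passed in every one of 23 alternatives, with values of -1.57 to -0.99 against P12 and -1.59 to -1.01 against P1. At P28 the measured level of Mymk was above that at P1 and the measured level of Mymx was below it.

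Other genes of the fusion step were counted by their brightest probe set, 50 of 52 listed genes being on the array. For P12 against P1, 5 of the 50 rose and none fell (limma), beside 3.94% and 1.85% of all genes, and 4 were lower at P12 at an unadjusted p under 0.05. Those that rose were Capns1, the small subunit of the calpain proteases, by 1.28 ± 0.16 (limma adjusted p = 0.000753), the tetraspanin Cd9 by 1.01 ± 0.17 (limma adjusted p = 0.0055), and Cd82, Cxcr4 and Cxcl12 by 0.70, 0.74 and 0.96, the last 3 being named after their values were seen. The calls of Cd82, Cxcr4 and Cxcl12 were lost in 9, 2 and 7 of 25 alternatives. Among replicates 1 and 2 alone Capns1 was higher by 0.996 and Cd9 by 0.64, and neither passed. With P12 replicate 3 left out 8 rose, and 3 did with any one of P1 replicates 2 and 4 and P12 replicates 1 and 4 left out. For P28 against P12, 15 rose and 2 fell, beside 15.5% and 15.4% of all genes, and for P28 against P1, 16 rose and 2 fell, beside 19.9% and 16.3%. Annexin A1 (Anxa1), a phospholipid-binding protein, had the largest rises, 2.88 ± 0.18 against P12 (limma adjusted p = 2e-07) and 3.20 ± 0.18 against P1 (limma adjusted p = 3.98e-08). The adhesion receptor Adgrg1 rose by 1.87 ± 0.17 against P12 and Cd9 by 2.83 ± 0.19 against P1. The genes that fell, named after their values were seen, were Trio, a Rac exchange factor, by 1.15, and Tanc1 by 0.57 against P12, and Trio by 1.37 and the Ig protein Kirrel3 by 1.30 against P1. Trio passed in all 23 alternatives, Tanc1 was lost in 6 and Kirrel3 in 1. The 2 that fell against P12 became 1 when any one of P12 replicates 1 and 2 and P28 replicates 1 and 2 was left out, 4 when P1 replicate 1 was and 5 when P12 replicate 4 was. The median change of this list was 0.19, 0.0058 and 0.26 in the same 3 comparisons. Cd9 and Anxa1 are also made by endothelial and stromal cells, whose markers were higher at P28, as given above. The part of those cells in these rises was not tested.

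Cadherins are calcium-dependent adhesion molecules that bind their own kind on the neighbouring cell. M-cadherin, the product of Cdh15, is found at the contact between satellite cell and fibre, and N-cadherin, the product of Cdh2, is found there too and on myoblasts. Cdh2 (1418815_at, the brighter of 2 probe sets) had log2 values of 5.84, 7.09, 6.45 and 6.76 at P1, 6.99, 7.33, 6.99 and 6.71 at P12, and 5.29, 4.74 and 5.23 at P28. All 3 P28 arrays lay below the 8 younger ones. The mean was 5.09 ± 0.30 at P28 (SD, n = 3) against 7.01 ± 0.25 at P12 and 6.54 ± 0.53 at P1 (SD, n = 4 each). Cdh2 was 3.79-fold lower at P28 than at P12, a change of -1.92 ± 0.25 (limma adjusted p = 7.59e-05), and 2.74-fold lower than at P1, a change of -1.45 ± 0.25 (limma adjusted p = 0.000477), and both passed in all 23 alternatives. The difference of P12 from P1 was 0.47 ± 0.23 (limma adjusted p = 0.296).

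The second Cdh2 probe set (1449244_at) gave 5.97, 6.61, 6.79 and 6.02 at P1, 6.21, 7.15, 7.02 and 6.73 at P12, and 5.01, 5.58 and 5.99 at P28. Its P28 arrays lay below all P12 arrays but overlapped the P1 arrays. It was 2.38-fold lower at P28 than at P12, a change of -1.25 ± 0.27 (limma adjusted p = 0.00348), and 1.76-fold lower than at P1, a change of -0.82 ± 0.27 (limma adjusted p = 0.0309). The second of these changes did not pass without P1 replicate 2, P1 replicate 3, P28 replicate 1 or P28 replicate 2, where it was -0.73, -0.67, -0.56 and -0.84, nor with the Gapdh covariate at -0.91.

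Cdh15 (1418602_at) had log2 values of 9.95, 9.83, 9.74 and 9.86 at P1, 9.94, 10.16, 9.99 and 10.46 at P12, and 10.28, 10.11 and 10.28 at P28. The 3 P28 arrays lay above the 4 P1 arrays, and the P12 arrays overlapped both other ages. The mean was 10.22 ± 0.10 at P28 (SD, n = 3), 10.14 ± 0.23 at P12 and 9.84 ± 0.08 at P1 (SD, n = 4 each). The rise of 0.38 ± 0.14 at P28 relative to P1, or 1.30-fold, was close to the threshold (limma adjusted p = 0.043), and the differences of 0.30 ± 0.13 for P12 against P1 and 0.09 ± 0.14 for P28 against P12 did not pass (limma adjusted p = 0.219 and 0.686). The rise did not pass in 11 of 23 alternatives, among them quantile normalisation, where it was 0.14, and the fits without P1 replicate 2, 3 or 4, without P12 replicate 2 or without any 1 of the P28 arrays, where it was 0.35 to 0.44.

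Of the other classical cadherins, catenins and nectins, all 25 were measured. Between P12 and P1 only Cdh11 passed, with a fall of 1.15 ± 0.21 (limma adjusted p = 0.0073) that was 0.77 and did not pass among replicates 3 and 4 alone, and 5 of the 25 were higher at an unadjusted p under 0.05. At P28 relative to P12, 4 of 25 rose and 3 fell, beside 15.5% and 15.4% of all genes, and for P28 against P1, 4 rose and 2 fell, beside 19.9% and 16.3%. The largest rises were those of Cdh5, the cadherin of endothelial cells, by 2.58 ± 0.34 against P12 and 3.12 ± 0.34 against P1, and of Cdh13, T-cadherin, by 1.25 ± 0.14 and 1.64 ± 0.14. Also higher, and named after their values were seen, were Cdh4 by 0.98 and Cdh11 by 0.77 against P12, and Cdh4 by 1.25 and vinculin (Vcl) by 0.66 against P1. Those that fell were Cdh10 by 0.43, beta-catenin (Ctnnb1) by 0.62 and Nectin1 by 0.77 against P12, and Cdh10 by 0.39 and Nectin1 by 1.10 against P1. Cdh4, Vcl and Nectin1 passed in every alternative run, Cdh10 was lost in 6 of 22 against P12 and 8 of 22 against P1, Ctnnb1 in 7 of 23 and Cdh11 in 5 of 23. With the mean of its probe sets Cdh11 was lower at P28 than at P12, at -0.23 (limma adjusted p = 0.258). The 3 that fell against P12 became 1 without P12 replicate 1, P28 replicate 1 or P28 replicate 3, and the 2 that fell against P1 became 1 without P1 replicate 2 or P28 replicate 1. The median change of the list was 0.12, 0.11 and 0.017 in the 3 comparisons. Cdh5 is itself among the endothelial markers given above, so its rise is part of theirs. The part of endothelial cells in it was not tested.

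Ncam1 encodes the neural cell adhesion molecule, an immunoglobulin (Ig) protein that is made in many spliced forms and marks myogenic cells as they differentiate. Its 7 probe sets did not give 1 answer. The brightest (1426864_a_at) averaged 10.62 ± 0.17 at P28 (SD, n = 3), 10.79 ± 0.21 at P12 and 10.40 ± 0.27 at P1 (SD, n = 4 each), with overlapping arrays, and passed in no comparison (limma adjusted p = 0.182 for P12 against P1, 0.495 for P28 against P12 and 0.329 for P28 against P1). Its difference of P12 from P1 passed with replicates 1 and 2 as a block against 3 and 4, at 0.39 (limma adjusted p = 0.0404), and with the Gapdh covariate, at 0.41 (limma adjusted p = 0.0377), and its difference of P28 from P1 passed with that covariate, at 0.60 (limma adjusted p = 0.0132). A second (1426865_a_at) averaged 10.24 ± 0.28 at P28, 10.26 ± 0.30 at P12 and 9.73 ± 0.24 at P1. Its difference of 0.53 ± 0.17 for P12 against P1 did not pass (limma adjusted p = 0.101) but passed with the replicate block (limma adjusted p = 0.0492), and its rise of 0.51 ± 0.19 for P28 against P1 passed (limma adjusted p = 0.0469) although the arrays overlapped. That rise was lost in 7 of 21 alternatives, namely quantile normalisation at 0.29 and the fits without P1 replicate 2, 3 or 4, P12 replicate 1, P28 replicate 1 or P28 replicate 2, at 0.35 to 0.58.

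Another Ncam1 probe set (1450437_a_at) changed most. It gave 7.69, 7.64, 8.09 and 8.13 at P1, 8.80, 8.51, 9.03 and 9.50 at P12, and 9.31, 9.27 and 9.68 at P28. Every P12 and P28 array lay above the 4 P1 arrays, and the P28 and P12 arrays overlapped. It rose by 1.07 ± 0.20 for P12 against P1, or 2.10-fold (limma adjusted p = 0.00756), and by 1.54 ± 0.21 for P28 against P1, or 2.90-fold (limma adjusted p = 8.61e-05). The difference of P28 from P12 was 0.46 ± 0.21 (limma adjusted p = 0.119). Among replicates 1 and 2 alone the rise at P12 was 0.99 and did not pass (limma adjusted p = 0.0624), and among replicates 3 and 4 it was 1.15 (limma adjusted p = 0.013). The difference of P28 from P12 passed without P12 replicate 4, at 0.64, and with replicates 1 and 2 as a block against 3 and 4, at 0.46 (limma adjusted p = 0.0261).

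The dimmer Ncam1 probe sets 1421966_at and 1450438_at share a transcript accession in the array annotation with 1450437_a_at and did not follow it. Probe set 1421966_at averaged 5.19 ± 0.44 at P28 against 5.75 ± 0.24 at P12 and 5.77 ± 0.27 at P1, and its fall of 0.58 ± 0.21 against P1 (limma adjusted p = 0.0416) was lost in 10 of 21 alternatives, among them those without P1 replicate 2, 3 or 4, P12 replicate 3, P28 replicate 1 or P28 replicate 2, where it was -0.63 to -0.45. Probe set 1450438_at averaged 4.94 ± 0.10 at P28, 4.94 ± 0.19 at P12 and 5.22 ± 0.29 at P1 and passed in no comparison, though it was lower at P28 than at P1 by 0.41 and passed without P1 replicate 3 (limma adjusted p = 0.0463). The remaining pair, 1425126_at and 1439556_at, averaged 5.48 and 5.01 at P28, 5.92 and 5.56 at P12, and 5.59 and 5.41 at P1, and did not pass either. Over the 11 arrays the correlation with the brightest probe set was 0.88 for 1426865_a_at, 0.24 for 1450437_a_at and -0.23 to 0.40 for the other 4. No direction for the gene as a whole is therefore given.

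**Figure D2:**
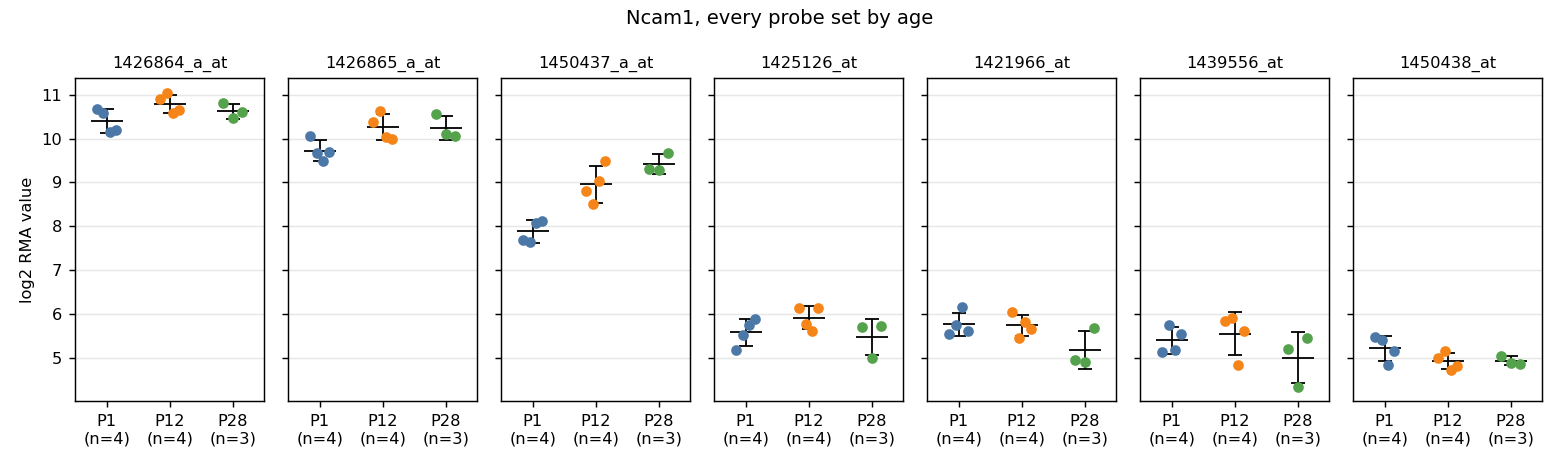
Log2 expression values of all 7 Ncam1 probe sets at P1, P12 and P28, ordered by brightness. Each point is 1 array, the long line is the mean and the bars are 1 SD, and 1450437_a_at averages 7.88 at P1, 8.96 at P12 and 9.42 at P28 while the brightest probe set stays between 10.40 and 10.79.

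The list of other Ig adhesion molecules, with the enzymes that add polysialic acid to NCAM, had 23 of 24 genes on the array. None passed for P12 against P1 (limma), where 3 were higher and 1 lower at an unadjusted p under 0.05. For P28 against P12, 7 of 23 rose and 3 fell, beside 15.5% and 15.4% of all genes, and for P28 against P1 the counts were again 7 and 3, beside 19.9% and 16.3%. The intercellular adhesion molecules Icam1 and Icam2, which bind leukocyte integrins, rose most, Icam1 by 2.84 ± 0.19 against P12 and 3.20 ± 0.19 against P1, and Icam2 by 2.07 ± 0.29 and 2.54 ± 0.29. The genes that fell in both comparisons, named after their values were seen, were Cadm1 by 0.86 and 0.84, the netrin and repulsive guidance receptor Neo1 by 0.62 and 0.68, and the polysialyltransferase St8sia2 by 1.07 and 0.57. The polysialyltransferase St8sia4, named in the same way, went the other way. It rose by 0.48 against P12, lost in 11 of 23 alternatives, and by 0.65 against P1, lost in 0 of 23. The call of Cadm1 was lost in 2 alternatives in each comparison, that of Neo1 in 1 in each, and that of St8sia2 in 5 against P1, those without P1 replicate 2, P28 replicate 1 or P28 replicate 2 among them. The median change of the list was 0.0083, 0.21 and 0.21. Named after their values were seen, Cadm4 rose by 1.51 against P12 and 1.81 against P1, and Cadm3 by 1.01 and 1.02. L1cam rose by 0.69 and 0.61 and Nrcam by 0.52 and 0.61. The call of Nrcam was lost in 6 of 22 alternatives against P12 and 2 of 22 against P1, and that of L1cam in 1 of 23 against P1. Icam1 and Icam2 are also made by endothelial cells and leukocytes. Endothelial and macrophage markers were higher at P28, and the part of such cells in these rises was not tested.

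Cdon and Boc are related Ig and fibronectin repeat proteins that bind cadherins and Hedgehog ligands at the cell surface and promote myogenic differentiation. Boc (1427516_a_at) had log2 values of 7.68, 7.48, 7.41 and 7.43 at P1, 6.99, 6.89, 7.38 and 7.04 at P12, and 8.37, 8.49 and 8.25 at P28. All P28 arrays lay above the 8 younger ones, and all P12 arrays lay below the P1 arrays, by a small margin for P12 replicate 3. The mean was 8.37 ± 0.12 at P28 (SD, n = 3) against 7.08 ± 0.21 at P12 and 7.50 ± 0.12 at P1 (SD, n = 4 each). Boc rose by 1.29 ± 0.14 at P28 relative to P12, or 2.45-fold (limma adjusted p = 1.51e-05), and by 0.87 ± 0.14 relative to P1, or 1.83-fold (limma adjusted p = 0.000253). The difference of -0.42 ± 0.13 for P12 against P1 did not pass (limma adjusted p = 0.0783), though it did without P12 replicate 3, at -0.52, and with quantile normalisation, at -0.51.

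A second Boc probe set (1426869_at) gave 7.85, 7.49, 7.34 and 7.35 at P1, 7.09, 7.02, 7.0 and 7.24 at P12, and 8.0, 7.72 and 7.86 at P28. The P28 arrays again lay above all P12 arrays, but overlapped the P1 arrays. It rose by 0.78 ± 0.14 at P28 relative to P12, or 1.71-fold (limma adjusted p = 0.00106), while the difference of 0.35 ± 0.14 from P1 did not pass (limma adjusted p = 0.0692) except with arrays centred on their medians at 0.39, with array weights at 0.42 and without P1 replicate 1 at 0.47. The dimmest (1427517_at) averaged 3.68 at P28, 3.83 at P12 and 3.82 at P1, near the range of the Trp controls, and gives no level for the gene.

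Cdon (1434957_at) had log2 values of 11.29, 11.47, 11.01 and 11.08 at P1, 11.57, 11.59, 11.22 and 11.51 at P12, and 11.19, 10.97 and 11.01 at P28. The P28 arrays lay below all P12 arrays and overlapped the P1 arrays. The mean was 11.06 ± 0.12 at P28 (SD, n = 3) against 11.47 ± 0.17 at P12 (SD, n = 4), a fall of 0.42 ± 0.14, or 1.34-fold lower, that was close to the threshold (limma adjusted p = 0.0407). At P1 it was 11.21 ± 0.21 (SD, n = 4), and neither P12 nor P28 differed from it past the threshold (limma adjusted p = 0.312 and 0.433). The fall did not pass in 8 of 23 alternatives, among them the mean of both Cdon probe sets at -0.19, the Gapdh covariate at -0.17, and the fits without P12 replicate 1, 2 or 4 or without P28 replicate 2 or 3, at -0.40 to -0.38. With quantile normalisation the difference of P28 from P1 was -0.43 and passed (limma adjusted p = 0.00371). The second probe set (1421452_at) averaged 8.19 ± 0.04 at P28, 8.15 ± 0.11 at P12 and 8.02 ± 0.10 at P1 and passed in no comparison.

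Genes of the Hedgehog pathway and other partners of Cdon and Boc were lower at P28 in several cases, with 22 of 23 on the array. For P28 against P12, 9 of the 22 fell and none rose (limma), with none higher at an unadjusted p under 0.05 either, and for P28 against P1, 12 fell and 1 rose. Of all genes, 15.5% rose and 15.4% fell against P12, and 19.9% rose and 16.3% fell against P1. Against P12 the largest falls were those of the ligand Dhh, by 1.41 ± 0.17 (limma adjusted p = 5.33e-05), and of the transcription factor Gli3, by 1.19 ± 0.19 (limma adjusted p = 0.000391). Against P1 they were those of the membrane proteoglycan Gpc3, by 2.10 ± 0.25 (limma adjusted p = 2.73e-05), and of Dhh, by 1.42 ± 0.17 (limma adjusted p = 3.21e-05). The gene that rose, named after its value was seen, was the ligand Ntn1, by 0.58, which did not pass without P1 replicate 1, 3 or 4 or without P28 replicate 1 or 3. At P12 relative to P1, 2 fell and none rose (limma), beside 1.85% and 3.94% of all genes, with 1 higher at an unadjusted p under 0.05. These were Gpc3, by 1.11 ± 0.23 (limma adjusted p = 0.0166), and Gli1, a transcription factor that the pathway induces, by 1.01 ± 0.20 (limma adjusted p = 0.0115). Among replicates 1 and 2 alone the changes were larger, at -1.44 for Gpc3 and -1.26 for Gli1, but did not pass (limma adjusted p = 0.0801 and 0.104), and among replicates 3 and 4 alone Gli1, at -0.76, did not pass either (limma adjusted p = 0.0696). The median change of the list was -0.091, -0.26 and -0.49. With the Gapdh 3' to 5' difference as a covariate the 9 that fell against P12 became 5. Disp1, named after its values were seen, was counted as fallen in both comparisons with P28. With the mean of its probe sets it was higher at P28, by 0.31 against P12 (limma adjusted p = 0.095) and by 0.50 against P1 (limma adjusted p = 0.00879).

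Vgll2 is a cofactor of the TEAD transcription factors that is found mainly in skeletal muscle. Its log2 values (1436361_at) were 9.84, 10.17, 9.69 and 9.82 at P1, 9.87, 10.42, 9.96 and 9.76 at P12, and 8.72, 9.15 and 8.90 at P28. All 3 P28 arrays lay below the 8 younger ones, which overlapped each other. The mean was 8.92 ± 0.21 at P28 (SD, n = 3) against 10 ± 0.29 at P12 and 9.88 ± 0.20 at P1 (SD, n = 4 each). Vgll2 was 2.11-fold lower at P28 than at P12, a change of -1.08 ± 0.17 (limma adjusted p = 0.000406), and 1.94-fold lower than at P1, a change of -0.95 ± 0.17 (limma adjusted p = 0.000743). Both passed in all 23 alternatives, and the difference of 0.12 for P12 against P1 did not (limma adjusted p = 0.767).

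Of its relatives, the Tead factors and the Hippo cofactors and kinases, 18 of 19 were on the array. At P28, 5 of 18 rose and 7 fell relative to P12, beside 15.5% and 15.4% of all genes, and 4 rose and 6 fell relative to P1, beside 19.9% and 16.3%. Among those with the largest changes were Ccn2 and Ankrd1, known targets of Yap and Tead. Ccn2, a secreted matrix protein, rose by 2.90 ± 0.40 against P12 (limma adjusted p = 0.000117) and by 3.44 ± 0.40 against P1 (limma adjusted p = 1.89e-05). Ankrd1, an ankyrin repeat protein of muscle, rose by 1.56 ± 0.17 and 3.04 ± 0.17 in the same comparisons, and by 1.48 ± 0.15 for P12 against P1 (limma adjusted p = 0.000154). The cofactors and factors themselves moved both ways, as in Vgll4, higher by 0.71 and 1.00, and Vgll3, Tead2, Tead4 and Yap1, lower by 0.70, 0.60, 0.86 and 0.45 against P12 and by 0.54, 0.61, 0.59 and 0.67 against P1, all 5 being named after their values were seen. Of these 10 calls, those of Vgll4 passed in every alternative, and the others were lost in 0 to 3, among them Tead4 against P1 without P28 replicate 1, Vgll3 against P1 without P28 replicate 2 and Yap1 against P12 without P28 replicate 3. With the mean of its probe sets Yap1 was at -0.12 against P12 and against P1 and did not pass (limma adjusted p = 0.446 and 0.426). Also named after their values were seen, Wwtr1 was higher by 0.52 against P12 and 0.58 against P1. Against P12, Tead3 was higher by 0.50 and Tead1 lower by 0.56. These 4 calls were lost in 6, 5, 2 and 1 of 23 alternatives. For P12 against P1, Ankrd1 and Tead1 rose, none fell (limma) and 2 were lower at an unadjusted p under 0.05. Tead1, by 0.49 ± 0.13 (limma adjusted p = 0.0468), did not pass when any 1 of the 11 arrays was left out, with values of 0.39 to 0.56. It did not pass with the replicate block at 0.49 (limma adjusted p = 0.0522) or with quantile normalisation at 0.26. The median change was 0.13, -0.34 and -0.23, and with the Gapdh covariate 2 fell in each comparison with P28. Ccn2 is also strongly made by endothelial and stromal cells, whose markers were higher at P28. The part of those cells in its rise was not tested.

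**Figure D3:**
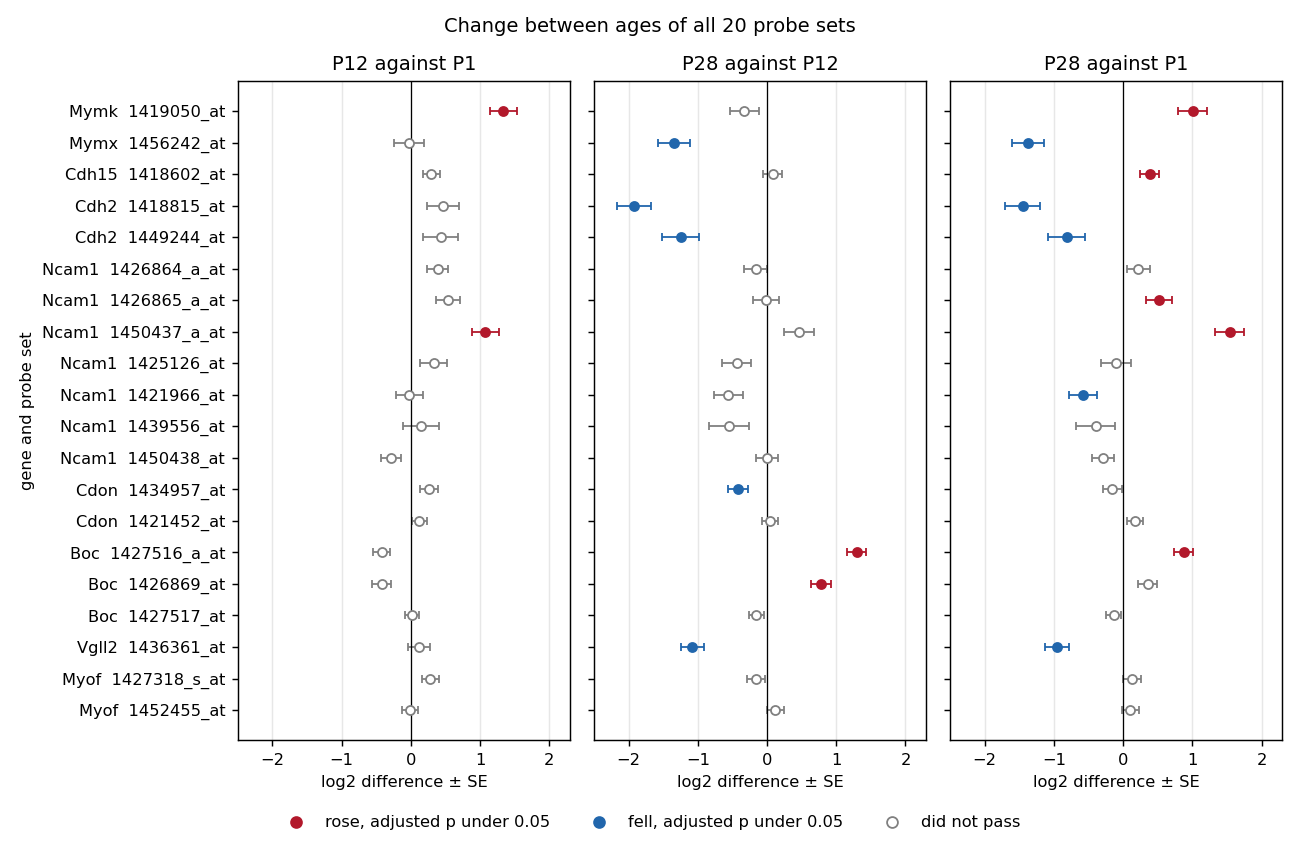
Log2 difference between ages for all 20 probe sets, with later minus earlier age on the x axis and standard errors as bars. Filled points passed at an adjusted p under 0.05, and the P28 panels show the falls of Mymx, Cdh2 and Vgll2 beside the rises of Boc.

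The promoter table supplied from RefSeq holds entries for 4 of the 9 genes, Cdh15, Cdon, Vgll2 and Myof. The 250 bases upstream of the annotated start were searched for the E-box CANNTG, the motif bound by MyoD family factors and other helix-loop-helix proteins, which reads the same on both strands. Cdh15 had 3 matches, 236, 135 and 32 bases upstream, Vgll2 had 1 match 246 bases upstream, and Cdon and Myof had 0. At least 1 match was found in 66.2% of the 32851 promoters of the table and at least 3 in 12.2%. The upstream sequences of Vgll2, which fell at P28 relative to both younger ages, and of Cdh15, which held the most matches of the 4, are shown from 5′ to 3′ on the plus strand of GRCm38.p6, with the E-box matches in capitals, at chr10:52022252-52022501 for Vgll2 and chr8:122848124-122848373 for Cdh15.
Vgll2: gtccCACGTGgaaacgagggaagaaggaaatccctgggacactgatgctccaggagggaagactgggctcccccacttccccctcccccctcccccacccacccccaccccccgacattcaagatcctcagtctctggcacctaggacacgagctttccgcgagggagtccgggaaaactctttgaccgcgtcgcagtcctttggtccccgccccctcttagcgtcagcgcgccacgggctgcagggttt
Cdh15: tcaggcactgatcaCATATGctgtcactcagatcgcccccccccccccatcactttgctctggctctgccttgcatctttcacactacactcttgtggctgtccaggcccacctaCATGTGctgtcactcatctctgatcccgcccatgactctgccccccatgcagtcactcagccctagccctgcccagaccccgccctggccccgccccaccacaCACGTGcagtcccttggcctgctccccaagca
The match in Vgll2 and the one nearest the start in Cdh15 have the same 6 letters, CACGTG. A match is a description of these letters and no measurement of binding, and no peak or methylation data bear on it here.

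Myof encodes myoferlin, a ferlin that binds phospholipids and acts in membrane trafficking and in the fusion of myoblasts with each other and with fibres. Its log2 values (1427318_s_at) were 6.60, 6.63, 6.71 and 6.61 at P1, 6.71, 7.06, 7.13 and 6.76 at P12, and 6.62, 6.87 and 6.80 at P28. All P12 arrays lay above the P1 arrays, by a very small margin for P12 replicate 1, and the P28 arrays overlapped both. The mean was 6.76 ± 0.13 at P28 (SD, n = 3), 6.92 ± 0.21 at P12 and 6.64 ± 0.05 at P1 (SD, n = 4 each), and no comparison passed (limma adjusted p = 0.224 for P12 against P1, 0.417 for P28 against P12 and 0.488 for P28 against P1). The suffix of this probe set marks probes that may bind transcripts of more than 1 gene. The other probe set (1452455_at) averaged 3.70 at P28, 3.58 at P12 and 3.59 at P1, near the range of the Trp controls.

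Of the other ferlins, Ehd proteins and membrane repair genes, 15 of 17 were on the array. None passed for P12 against P1 (limma), where 4 were higher and 2 lower at an unadjusted p under 0.05. At P28 relative to P12, 4 of 15 rose and none fell (limma), beside 15.5% and 15.4% of all genes, with none lower at an unadjusted p under 0.05. For P28 against P1, 5 rose and 1 fell, beside 19.9% and 16.3%, with 3 rising when P28 replicate 2 was left out. Ehd3 and Ehd4, ATPases that shape endosomal membranes, rose most, Ehd3 by 0.99 ± 0.19 against P12 and 1.20 ± 0.19 against P1, and Ehd4 by 0.97 ± 0.20 and 1.34 ± 0.20. With the Gapdh covariate the rise of Ehd4 against P12 was 0.60 and did not pass (limma adjusted p = 0.0635). The others that passed, named after their values were seen, were Fer1l4 by 0.43 and Cavin4 by 0.92 against P12, and Fer1l4 by 0.39, Anxa6 by 0.82 and Cavin4 by 0.77 against P1, with Otof lower by 0.58. Fer1l4 was lost in 7 of 23 alternatives against P12 and 14 of 23 against P1, and Cavin4 against P1 without P28 replicate 2. With the mean of its probe sets Anxa6 was lower at P28 than at P1, at -0.19 (limma adjusted p = 0.34). The median change was 0.20, 0.11 and 0.39. Cavin4 is a caveolar protein of striated muscle, and mature fibre markers rose in the same arrays. The part of fibres in its rise was not tested.

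**Figure D4:**
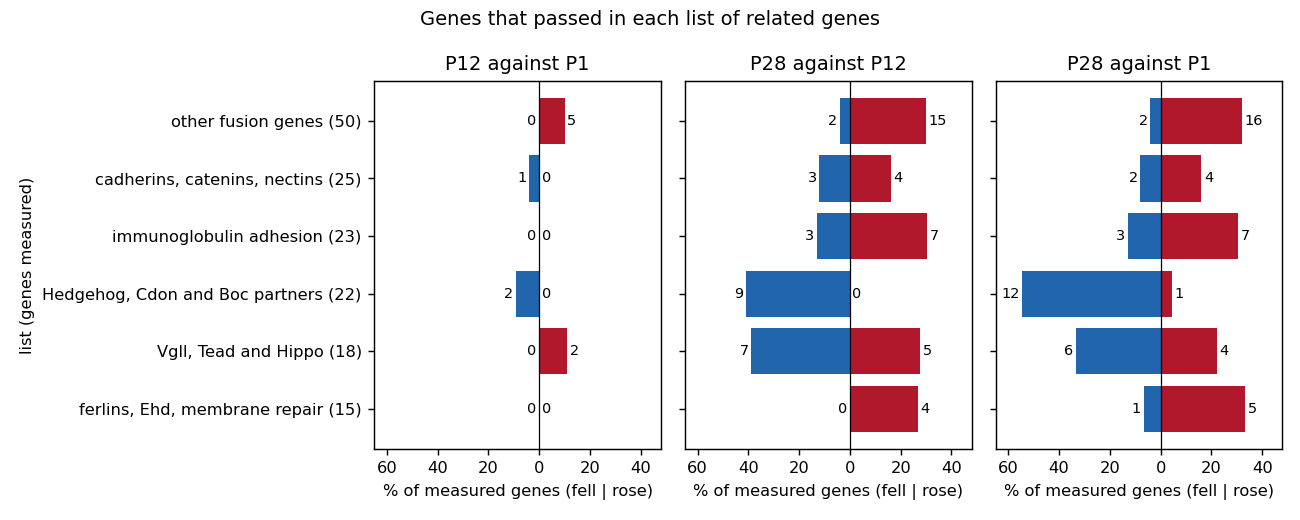
Share of the measured genes of 6 lists that rose (right, red) or fell (left, blue) between ages, in percent, with the number of genes at the end of each bar. The Hedgehog, Cdon and Boc list has 9 genes that fell for P28 against P12 and 12 for P28 against P1, and the list of other fusion genes has 15 and 16 that rose.

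Proliferation and differentiation genes give the setting in which these values stand. Of 11 proliferation genes, 7 rose for P12 against P1, beside 3.94% of all genes, led by Birc5 by 1.49 ± 0.30 and Plk1 by 1.34 ± 0.24, and 10 fell for P28 against P12, beside 15.4%, led by Top2a by 1.76 ± 0.30 and Ccna2 by 1.66 ± 0.25. Their summed level was 13.02 to 13.45 at P28, 13.78 to 14.35 at P12 and 13.06 to 13.68 at P1. For P28 against P1, 2 fell and 1 rose, Mcm5 falling by 0.61 and Pcna rising by 0.57 among them. Of 18 genes of the myogenic lineage, 3 rose and 2 fell for P12 against P1, beside 3.94% and 1.85% of all genes, and Chrna1, a subunit of the muscle acetylcholine receptor, rose by 1.33 ± 0.15. For P28 against P12, 3 of the 18 rose and 2 fell, beside 15.5% and 15.4% of all genes. For P28 against P1, 5 rose and 4 fell, beside 19.9% and 16.3%. The median change of this list was 0.18, -0.17 and 0.19 in the 3 comparisons. At P28 the creatine kinase Ckm, also among the fibre markers above, was higher by 3.96 ± 0.34 than at P12 and by 3.82 ± 0.34 than at P1. Desmin (Des) was higher by 1.60 ± 0.14 than at P12, and the embryonic myosin Myh3 was lower by 2.07 ± 0.20 than at P1.

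For the 5 genes that passed the test of any difference, the 3 genes with the most similar course over the 11 arrays were found by Pearson's r among the brightest probe sets of all genes, as a description. The 11 arrays fall into 3 ages that also differ in their cell type markers. Any gene with the same step between ages therefore scores highly. For Mymk they were Tinf2 (0.971), Top1mt (0.963) and Coq7 (0.954), and for Mymx they were Cep70 (0.974), Klhl23 (0.949) and Snapc2 (0.945). For Cdh2 they were Susd5 (0.984), Ttc9c (0.973) and Sephs1 (0.970). For Boc they were Abhd14b (0.984), Ttc23 (0.983) and Lsp1 (0.972), and for Vgll2 they were Sdk1 (0.975), Sh3kbp1 (0.972) and Yes1 (0.972). None of the 9 genes appears among the nearest 3 of another.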

How the data were processed

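Sorted GFP-positive cells of 11 mouse samples were measured on an Affymetrix expression array. The authors' deposited table holds log2 values; the submitters' processing notes name RMA, Affymetrix Expression Console and affy, with no version, and the genome build is not given in the sources used here. Of 45101 probe sets, 64 controls were left out and 45037 were tested; 34945 have 1 gene symbol in the platform annotation. No 2 arrays held identical values. All ages were fitted together with limma 3.58.1 in R 4.3.3 (lmFit, eBayes, 8 residual degrees of freedom), without a block, with Benjamini-Hochberg adjustment. The number of arrays limits the precision.

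The members and lists were chosen with earlier results of these data known. Up to 2 genes per list and comparison were named: the largest changes that passed with arrays that do not overlap. Of the genes in the lists, 12 had no probe set. On simulated data, 66 or 67 probe sets of 45037 were changed at each of 3 sizes. There 97% of changes of 1 log2 unit for P12 against P1 and 92.5% for P28 against P1 were recovered. Of changes of 0.5, 11.9% were recovered in each. Far more probe sets passed in the real data, 2181 for P12 against P1, 13229 for P28 against P12 and 15753 for P28 against P1. The adjustment depends on how many pass, and the simulated arrays lacked the split of replicates described below. These shares therefore do not carry over to the calls of any of the 3 comparisons. The titles give replicate numbers. Deviations from the age means correlated at 0.14 to 0.31 in the 4 same-numbered pairs of P12 and P1 and at -0.12 to 0.09 in those with P28. The first pairs pass the limit of 0.1 set for pairing, but differently numbered P12 and P1 arrays within replicates 1 and 2, or within 3 and 4, correlated at 0.14 to 0.25, so the number is not told apart from that split. The p-values printed are unpaired, and the blocked value is given where it changes a call for P12 against P1. Replicates 1 and 2 had a Gapdh 3' to 5' difference of 2.59 to 3.05 and replicates 3 and 4 of 1.32 to 1.69 at P1 and P12; this split is not in the labels. With it as a block, P28 was its own set, set against the mean of both. The alternatives were other scalings, filters, probe set summaries, covariates, blocks and the omission of each array; the same ones were applied to the lists after the data had been seen.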

Additional observations from a re-analysis of the deposited data

Results flagged for a closer look

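In the 40 groups of 4 arrays given by the 20 probe sets at P1 and P12, 1 array stood apart from its group by Dixon's test, where chance gives about 1 in 20 groups. It was P1 replicate 3 for the dim Myof probe set 1452455_at, with a log2 value of 3.47 against 3.62 to 3.64 in the other 3 P1 arrays. The gap was 0.840 of the range. All these values lie near the range of the Trp controls.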

How the results depend on the processing

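Under 25 alternatives, no member value past the threshold changed its direction. Of 427 values recomputed for the 19 changes that passed, 383 passed again and 44 did not, and of 1345 values in all, 26 passed only in the alternative. For P12 against P1, the count of 2 probe sets became 4 with quantile normalisation (2 higher, 2 lower), 4 with the Gapdh covariate, 4 with replicates 1 and 2 as a block against 3 and 4, and 0 among replicates 1 and 2 alone (limma, with 6 at an unadjusted p under 0.05). With 1 probe set for each gene it was 1 of 9 genes, and with the mean of the probe sets of each gene also 1 of 9. Leaving out 1 array gave 2 to 3. For P28 against P12, the count of 7 became 4 of 9 genes with the mean of the probe sets, and 6 to 8 when 1 array was left out. For P28 against P1, the count of 10 became 6 of 9 genes both with 1 probe set for each gene and with their mean, and 6 to 11 when 1 array was left out. Quantile normalisation turned its 5 higher and 5 lower into 3 and 5, and centring each array into 6 and 4. With the replicate block the counts were 3, 9 and 10 in the 3 comparisons. In P12 against P1 the block added the Ncam1 probe set 1426865_a_at and changed no other call. In P28 against P12, where the numbers do not pair the arrays, it added the Ncam1 probe sets 1450437_a_at at 0.59 and 1421966_at at -0.60. The causes of these changes were not tested beyond the smaller number of genes or arrays that some alternatives hold. For the 18 genes named from the lists by rule, 701 of 726 recomputed values passed again, 25 did not and none changed direction. For the other list changes that passed, 101 in 66 genes, 2109 of 2316 values passed again and 203 did not. Another 4 changed direction, all with the mean of the probe sets of each gene, namely Cdh11 at -0.23 against P12, Anxa6 at -0.19 against P1, and Disp1 at 0.31 against P12 and 0.50 against P1. Of these, only Disp1 against P1 passed in the changed direction (limma adjusted p = 0.00879). Among the list counts, the 5 other fusion genes higher at P12 than at P1 became 3 with quantile normalisation and 8 with the Gapdh covariate or the block of replicates 1 and 2 against 3 and 4. The 4 cadherin genes higher at P28 than at P1 became 7 with array weights or the covariate, and the 5 ferlin and repair genes became 8 with array weights, the mean of the probe sets or that block and 9 with the covariate. Where an adjusted p lies near the threshold, as for Cdh15, Cdon and Ncam1 1421966_at, the number of arrays limits what can be said.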
